A study of Homo sapiens with 20 samples.

Results

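The S100A genes encode small calcium-binding proteins of the EF-hand family, and 10 of them were followed here in orthotopic ovarian tumors: S100A2, S100A3, S100A4, S100A6, S100A8, S100A9, S100A10, S100A11, S100A13 and S100A16. They were taken by symbol, with earlier results of these data known. Of the 10 genes, 9 had values among the 24196 genes of the table, and 8 had a mean FPKM of at least 0.5 and so were among the 12486 genes tested. S100A8 had values but was below this minimum, and S100A9 was not analysed here. FPKM scales the fragments counted on a gene by its length and by the total of the library. Comparing levels of different genes therefore depends on the length used for each gene.

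The tumors grew in NSG mice from OVCAR8, a human high-grade serous ovarian cancer line. NSG mice lack T, B and natural killer cells but keep mouse myeloid cells, fibroblasts and vessels. One group of 4 libraries came from tumors given PBS and the other group of 4 came from tumors given gluconate. This follows the labels: the text of the study describes the sequenced material as treated OVCAR8 cells, and the sources used here do not settle which is right. Gluconate was studied as a compound that acts on the complex of CHP1, an EF-hand protein, with TMEM87A, a mechanosensitive membrane protein. In the efficacy experiment, tumor cells carrying the non-targeting guide sgNC and luciferase were placed in the ovarian fat pad of mice aged 6 weeks, and sodium gluconate was given at 1 mg/kg i.p. once weekly over 35 days. The labels of the RNA-seq libraries give neither dose nor guide. They also do not state that each replicate is a separate mouse, so p values measure only the spread between these libraries. The series has 12 further libraries from a cell culture experiment on knockouts of CHP1 and of TMEM87A, which were not analysed here.

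S100 proteins work mostly as dimers that open when they bind calcium and then hold a target protein. Inside the cell they act on myosin, annexins and p53, and outside the cell some of them act as alarmins on AGER and TLR4. In ovarian and other carcinomas, S100A4 is the member best known from work on metastasis.

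PBS replicate 4 stood apart, and the differences of the S100A genes tested are given with and without it. It had 3953206 fragments, against 39325749 to 46551535 in the other 7 libraries. Its Pearson's r with the other libraries across the genes tested was 0.938 to 0.951, while the other 7 libraries correlated with each other at 0.980 to 0.994. PAX8, a transcription factor of the Mullerian lineage, was at 32.4 to 50.7 FPKM in the 8 libraries, and the keratin KRT8 was at 699.7 to 1051 FPKM. KRT7 was the 1 of 9 tested carcinoma markers with an unadjusted limma p under 0.05, where 4.62% of all genes tested had one, and 3 of the 9 had a log2 difference below 0 (KRT18 -0.33, KRT8 -0.20 and WT1 -0.67, or -0.14 without PBS replicate 4). Without that library 4 of the 9 were below 0, since EPCAM turned from 0.064 to -0.15. KRT7 was at 335, 234, 185 and 124 FPKM in PBS and at 306, 293, 387 and 393 FPKM in gluconate. Its log2 difference was 0.73, or 0.48 without PBS replicate 4, where it was lowest. The carcinoma markers CDH1 and MUC16 were not above 0.159 and 0.00168 FPKM in any library. The table lists human genes, so RNA of the mouse host can be seen only where it was counted on a human gene.

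All 10 S100A genes lie on chromosome 1 at 1q21, in the order S100A10, S100A11, S100A9, S100A8, S100A6, S100A4, S100A3, S100A2, S100A16 and S100A13 (GRCh38, GENCODE annotation). S100A6, S100A4, S100A3 and S100A2 are neighbors on the minus strand within 33292 bases, chr1:153534599-153567890, with S100A5 between S100A6 and S100A4. These 4 genes had the largest fitted differences between the groups, and their promoters are shown for that reason, although the tumor data hold no measurement of the promoters. Each sequence is the 250 bases before the first transcript start in RefSeq (GRCh38.p14), read on the minus strand, with motif matches in capitals.
S100A6, chr1:153535992-153536241: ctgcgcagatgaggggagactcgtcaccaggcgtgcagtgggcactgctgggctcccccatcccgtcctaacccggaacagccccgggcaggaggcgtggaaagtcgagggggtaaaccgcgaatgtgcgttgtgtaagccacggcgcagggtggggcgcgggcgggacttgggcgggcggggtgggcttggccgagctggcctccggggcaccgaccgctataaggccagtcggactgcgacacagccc
S100A4, chr1:153545807-153546056: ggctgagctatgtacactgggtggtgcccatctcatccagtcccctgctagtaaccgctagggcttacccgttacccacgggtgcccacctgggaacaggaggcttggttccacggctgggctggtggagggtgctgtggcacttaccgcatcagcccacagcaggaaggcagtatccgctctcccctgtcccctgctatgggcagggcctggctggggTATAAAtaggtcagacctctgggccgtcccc
S100A3, chr1:153549259-153549508: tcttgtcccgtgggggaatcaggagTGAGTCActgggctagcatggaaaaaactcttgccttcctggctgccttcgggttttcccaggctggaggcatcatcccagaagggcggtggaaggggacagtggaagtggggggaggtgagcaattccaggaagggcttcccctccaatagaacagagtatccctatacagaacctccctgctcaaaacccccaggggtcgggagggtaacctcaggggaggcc
S100A2, chr1:153565845-153566094: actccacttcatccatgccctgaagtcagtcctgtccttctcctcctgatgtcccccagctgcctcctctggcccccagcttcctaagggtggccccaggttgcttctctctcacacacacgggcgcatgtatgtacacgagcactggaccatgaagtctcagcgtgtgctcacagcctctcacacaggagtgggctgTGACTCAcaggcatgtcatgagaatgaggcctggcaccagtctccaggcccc
The motifs searched on both strands were those of AP-1, TEAD and the TATA box. The AP-1 site was TGANTCA, which reads the same on either strand. The TEAD site was GGAATG and its reverse complement. The TATA box was TATAAA and its reverse complement. The S100A2 window holds the AP-1 match TGACTCA at 52 bases before the start, and the S100A3 window holds TGAGTCA at 225 bases before it. The S100A4 window holds TATAAA at 31 bases before the start, and the S100A6 window has no match. Of 35116 windows of the same length over all genes, 6.57% hold the AP-1 letters, 11.9% the TEAD letters and 10.7% the TATA letters, so the matches describe these windows only.

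S100A6 was the most abundant of the S100A genes, and the members spanned levels from among the strongest genes of the tumors to none. Mean FPKM over the 8 libraries was 1652 for S100A6, 673 for S100A10, 390 for S100A11, 189 for S100A2, 118 for S100A16, 110 for S100A4, 34.4 for S100A13 and 8.78 for S100A3. Each gene was above the next of this order in 8 of 8 libraries, except that S100A16 was above S100A4 in only 3 of 8, so this pair cannot be ordered. S100A6 ranked between 22 and 52 among the genes of a library, S100A10 between 76 and 103 and S100A11 between 126 and 145. S100A3 ranked between 4067 and 6092. Added up, the S100A genes with values took 0.654% to 0.883% of all FPKM of a library, and S100A6 alone made up 44.5% to 54.5% of their sum. The plot of levels by library shows that the order held in PBS and gluconate tumors alike, apart from S100A4.

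Between gluconate and PBS tumors, 3 of the 8 tested members had an unadjusted p under 0.05 with limma, all of them higher in gluconate: S100A4, S100A6 and S100A2. Among all genes tested, 4.62% had such a p, 3.13% with higher and 1.49% with lower values in gluconate. With Benjamini-Hochberg adjustment in limma, 0 of the 12486 genes had an adjusted p under 0.05, and the smallest was 0.740, although 577 genes had an unadjusted p under 0.05. limma's voom on the recovered fragments gave 593 genes with an unadjusted p under 0.05 and 0 with an adjusted one. The log2 fold change was above 0 in 8 of 8 members, with a median of 0.22 against 0.069 over all genes tested. Without PBS replicate 4 it was above 0 in 6 of 8, with a median of 0.22 against -0.0029 over all genes. In that fit 2 of 8 members, S100A4 and S100A6, had an unadjusted p under 0.05, where 6.21% of all genes tested had one, 2.85% with higher and 3.36% with lower values in gluconate. In these bulk samples, fewer cells with a transcript and less of it per cell cannot be told apart.

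S100A4 binds non-muscle myosin and is known for its part in cell motility and metastasis. Its FPKM in PBS tumors was 104, 106, 92.6 and 40.5 in replicates 1 to 4, and in gluconate tumors 139, 112, 134 and 151. Every gluconate library was above every PBS library. S100A4 was the only member whose groups did not overlap, where 3.49% of all genes tested did not overlap and 2.08% did so with higher gluconate values. The mean was 85.6 ± 30.6 (SD, n = 4) in PBS and 134 ± 16.1 (SD, n = 4) in gluconate. On the log2(FPKM + 0.1) scale the difference was 0.73 (SE 0.28, 95% interval 0.11 to 1.36), with an unadjusted p of 0.0261 and an adjusted p of 0.740 in limma. The two-sided exact permutation test gave p = 0.0286, which is the smallest that the 70 splits of 8 libraries allow. The unadjusted limma p was 0.0542 without gluconate replicate 1 and 0.0641 without gluconate replicate 4.

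The size of the S100A4 difference rested in part on PBS replicate 4. That library held 90 fragments of S100A4, against 2076 to 3622 in the others, and its value of 40.5 FPKM had a 95% Poisson interval of 32.6 to 49.8, which covers counting error only. The log2 difference of this library from the median of the other PBS libraries was -1.35 for S100A4, while over all genes tested its median was -0.28 and the 5th and 95th percentiles were -1.34 and 0.78. Without this library the PBS mean was 101 ± 7.08 (SD, n = 3), and the difference was 0.41 (SE 0.099), with an unadjusted p of 0.00239 and an adjusted p of 0.799 in limma. The groups still did not overlap, nor did those of 6.1% of all genes, or 2.43% with higher gluconate values. The exact permutation p was then 0.0571, the smallest of 35 splits.

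Collagen COL1A1, a fibroblast marker, was also low in PBS replicate 4, at 41.4 FPKM against 121 to 182 FPKM in the other 7 libraries. The 10 fibroblast markers summed to 45.3 FPKM there, to 130 to 185 FPKM in the other PBS libraries and to 165 to 192 FPKM in gluconate. Of this list, 0 of the 5 genes tested had an unadjusted limma p under 0.05, where 4.62% of all genes tested had one. These were COL1A1 and, at means of 1.23 to 3.31 FPKM, COL3A1, LUM, PDGFRB and FAP, and all 5 had a log2 difference above 0, with a median of 0.49 against 0.069 over all genes, or 4 of 5 with a median of 0.20 against -0.0029 without PBS replicate 4. All 5 were lower in PBS replicate 4 than in every other library. The defining markers COL1A2 and DCN were not above 0.0678 and 0.0388 FPKM in any library. KRT7, of the carcinoma list, was also lowest in PBS replicate 4. The 6 endothelial markers summed to 0.257 to 0.707 FPKM and the 3 adipocyte markers with values to at most 0.335 FPKM. The part of these cells in the S100A4 values was not tested.

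S100A3, a cysteine-rich member known from hair cuticle, lies wholly within the GENCODE span of S100A4 on the same strand, over 2044 bases. From the RefSeq start used for its promoter window, S100A4 does not overlap S100A3, so the overlap depends on the annotation. Whether fragments could be split between the pair is not given in the sources used here, so both counts are uncertain to that extent. S100A3 was at 8.72, 7.01, 7.60 and 7.50 FPKM in PBS and at 9.56, 8.19, 8.33 and 13.3 FPKM in gluconate. Gluconate replicate 4 was the highest library and the groups overlapped. The log2 difference was 0.33 (SE 0.16), with an unadjusted p of 0.0656 in limma. Without gluconate replicate 4 it was 0.17, with an unadjusted p of 0.169, and without PBS replicate 4 it was 0.31. In PBS replicate 4, where S100A4 was lowest, S100A3 was within the range of the other PBS libraries, on 22 fragments.

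S100A6, or calcyclin, binds CACYBP and annexins and is made by many dividing cells. It was at 1734, 1503, 1363 and 1200 FPKM in PBS and at 1947, 1687, 1801 and 1980 FPKM in gluconate. Only PBS replicate 1 reached into the gluconate range, above gluconate replicate 2. The mean was 1450 ± 226 (SD, n = 4) in PBS and 1854 ± 136 (SD, n = 4) in gluconate. The log2 difference was 0.36 (SE 0.11, 95% interval 0.11 to 0.62), with an unadjusted p of 0.00950 in limma, the lowest of the members, and an adjusted p of 0.740. The exact permutation p was 0.0571. Without PBS replicate 4 the difference was 0.28, with an unadjusted p of 0.0203 in limma.

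S100A2 binds p53 and is a gene of basal squamous epithelium that is often altered in carcinomas. It was at 215, 182, 143 and 117 FPKM in PBS and at 227, 186, 240 and 202 FPKM in gluconate. PBS replicate 1 was above gluconate replicates 2 and 4, so the groups overlapped, and PBS replicate 4 was again the lowest library. The log2 difference was 0.41 (SE 0.18, 95% interval 0.017 to 0.80), with an unadjusted p of 0.0425 in limma. Without PBS replicate 4 it was 0.26, with an unadjusted p of 0.0849 in limma. The unadjusted p was also above 0.05 without PBS replicate 3 (0.102) and without gluconate replicate 1 (0.0918), replicate 3 (0.105) or replicate 4 (0.0599). The exact permutation p over all 8 libraries was 0.114. The squamous genes TP63 and KRT5 were not above 0.0105 and 0.0341 FPKM in any library, while KRT14 was at 1.53 to 9.97 FPKM and KRT10 at 11.7 to 17.5 FPKM. Over that marker list, 7 of 10 genes had values, their sum ranged from 13.9 to 19.9 FPKM in PBS and from 16.1 to 27.6 FPKM in gluconate, and 0 of the 2 genes tested, KRT14 and KRT10, had an unadjusted limma p under 0.05, at log2 differences of 0.66 and 0.18, and at the 4.62% of all genes a list of 2 can hold none. Their part in the S100A2 values was not tested.

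**Figure D1:**
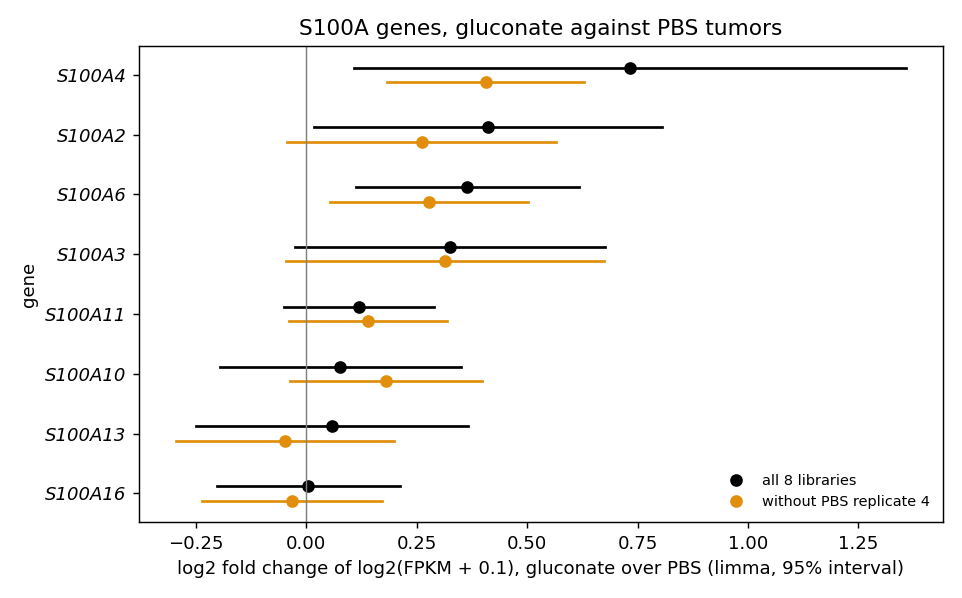
Log2 fold change on the log2(FPKM + 0.1) scale, gluconate against PBS, for the 8 tested S100A genes, with bars for limma's 95% intervals, from all 8 libraries and without PBS replicate 4. The intervals of S100A4 and S100A6 lie above 0 in both fits, and leaving out PBS replicate 4 moves S100A4 from 0.73 to 0.41.

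The annexin partners S100A10 and S100A11 had overlapping groups and intervals that include 0. S100A10, which has lost calcium binding and forms a membrane complex with annexin A2, was at 620, 627, 572 and 808 FPKM in PBS and at 704, 587, 685 and 785 FPKM in gluconate. PBS replicate 4 was the highest of all 8 libraries here, with a Poisson interval of 774 to 842, so in this library S100A10 stood above the other PBS libraries while S100A4, S100A2 and S100A6 stood below them. The log2 difference was 0.077 (95% interval -0.20 to 0.35), with an unadjusted p of 0.541 in limma, and without that library it was 0.18, with an unadjusted p of 0.0932. It was 0.013 without gluconate replicate 4, 0.015 without PBS replicate 3 and 0.011 with median-of-ratios scaling.

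S100A11, which binds annexin A1, was at 399, 355, 353 and 388 FPKM in PBS and at 390, 394, 389 and 453 FPKM in gluconate. Apart from gluconate replicate 4, all libraries of both groups lay within 353 to 399 FPKM. The log2 difference was 0.12 (95% interval -0.049 to 0.29), with an unadjusted p of 0.144 in limma. Without gluconate replicate 4 it was 0.067, and without PBS replicate 4 it was 0.14.

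S100A13, which helps to release FGF1 from cells, and S100A16, a broadly expressed member, had the differences nearest to 0 over all 8 libraries. This order did not hold in every alternative: without PBS replicate 3, S100A13 was at 0.19 and S100A10 at 0.015. S100A13 was at 34.5, 31.0, 43.6 and 26.8 FPKM in PBS and at 38.1, 34.6, 34.4 and 32.4 FPKM in gluconate, and the highest and the lowest library were both PBS tumors. Its log2 difference was 0.058 (95% interval -0.25 to 0.37), and it was -0.048 without PBS replicate 4. S100A16 was at 120, 106, 136 and 108 FPKM in PBS and at 120, 107, 119 and 124 FPKM in gluconate. Its log2 difference was 0.0045 (95% interval -0.20 to 0.21), and it was -0.033 without PBS replicate 4.

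S100A8, which with S100A9 forms calprotectin, the main cytosolic protein of neutrophils, had 1 fragment in all 8 libraries together, in gluconate replicate 3. A count of 0 allows up to 3 fragments, which is 0.0888 to 0.105 FPKM in the 7 deeper libraries and 1.05 FPKM in PBS replicate 4. Differences in S100A8 below these levels were not detectable at this depth. Of the human myeloid markers, some were near 0: PTPRC was not above 0.0165, CD14 not above 0.0302 and CSF3R not above 0.00678 FPKM in any library. The 8 markers of that list with values summed to 25.9 to 29.0 FPKM in PBS and 20.8 to 28.0 FPKM in gluconate, of which CD68 gave 19.7 to 28.0 and ITGAM 0.691 to 1.36. CD68 and ITGAM were the 2 tested, and 0 had an unadjusted limma p under 0.05, where 4.62% of all genes had one.

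Along the chromosome, the log2 differences were 0.36 for S100A6, 0.73 for S100A4, 0.33 for S100A3 and 0.41 for S100A2, which are neighbors. They were 0.077 and 0.12 for S100A10 and S100A11 on one side and 0.0045 and 0.058 for S100A16 and S100A13 on the other side. Without PBS replicate 4 they were 0.28, 0.41, 0.31 and 0.26 for the 4 neighbors, 0.18 and 0.14 for S100A10 and S100A11, and -0.033 and -0.048 for S100A16 and S100A13. The sides are not alike in distance: S100A11 ends at chr1:152047907, far from the 4 neighbors, while S100A16 starts at chr1:153606886, close to them. No test was made of position. S100A5, which lies within the stretch of the 4 neighbors, was below the minimum, with a mean of 0.344 FPKM in PBS and 0.507 FPKM in gluconate. PBS replicate 4 had 0 fragments of it, where 3 fragments are 0.323 FPKM, and without that library the PBS mean was 0.459 FPKM. Of the 7 genes tested among the other neighbors of 1q21, 0 had an unadjusted limma p under 0.05, against 4.62% of all genes. Their median log2 difference was 0.045, and -0.036 without PBS replicate 4.

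Some members varied together between libraries, and this depended on PBS replicate 4. Over the 7 libraries without PBS replicate 4, Pearson's r of log2(FPKM + 0.1) was 0.37 to 0.93 in the 15 pairs among S100A2, S100A3, S100A4, S100A6, S100A10 and S100A11, and -0.47 to 0.31 in the 12 pairs of these with S100A13 or S100A16. These 6 genes were grouped after their values were seen, and the points share libraries, so the values are a description. The pair S100A13 and S100A16 had r = 0.73. With PBS replicate 4 included, the 15 pairs spanned -0.24 to 0.92 and the 12 pairs -0.64 to 0.52, so the ranges overlap, and S100A13 with S100A16 had r = 0.75. Gluconate replicate 4 had the highest value of its group in 6 of the 8 members and gluconate replicate 2 the lowest in 6 of 8. PBS replicate 4 was the lowest of its group in 4 of 8 members, and PBS replicate 1 the highest in 4 of 8. The genes most like S100A6 over the 7 libraries were APTX, CHRDL1 and UNC50, each with r between 0.97 and 0.98.

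Among the targets and receptors of the S100A proteins, 1 annexin had an unadjusted limma p under 0.05. Of the 10 annexins tested, only ANXA5, which binds phosphatidylserine, passed that threshold: it was higher in gluconate, by 0.21 on the log2 scale with an unadjusted p of 0.0184, and the groups did not overlap, at 408 ± 38.9 FPKM in PBS and 471 ± 6.28 FPKM in gluconate (SD, n = 4 each). Without PBS replicate 4 the difference of ANXA5 was 0.19. Over all genes tested, 4.62% had such a p and 3.49% had groups that did not overlap. The median over the 10 annexins was 0.18, against 0.069 over all genes, and 0.13 against -0.0029 without PBS replicate 4. ANXA2, the partner of S100A10, was at 565 ± 47.8 FPKM in PBS and 564 ± 37.3 FPKM in gluconate, with a log2 difference of -0.0010. The ratio of S100A10 to ANXA2 in FPKM was 1.01, 1.10, 1.14 and 1.40 in PBS and 1.18, 1.14, 1.23 and 1.33 in gluconate, with the highest value in PBS replicate 4. This ratio rests on recovered lengths of 671 bases for S100A10 and 5266 for ANXA2. It can be read between libraries and not as an absolute level. The difference of ANXA1 was 0.16 with an unadjusted p of 0.290 in limma. ANXA11 differed by 0.17 with an unadjusted p of 0.275, and by 0.016 without PBS replicate 4, where it was at 10.6 FPKM against 15.0 to 17.2 FPKM in the other PBS libraries.

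Of the 10 intracellular partners tested, 0 had an unadjusted limma p under 0.05, where 4.62% of all genes tested had one, a share at which lists this short can hold none. AHNAK, which holds the S100A10 and annexin A2 complex, differed by -0.087 on the log2 scale, or -0.035 without PBS replicate 4. The S100A4 targets MYH9 and PPFIBP1 differed by 0.095 and 0.17, but by -0.0021 and -0.028 without PBS replicate 4, where both were at their lowest. The S100A6 partner CACYBP differed by -0.025, or -0.0081 without that library, and the S100A13 cargo FGF1, at 0.863 FPKM in PBS, by 0.11, or 0.22 without it. None of the 4 tested genes of the plasminogen system, which S100A10 serves at the cell surface, had such a p either. Of the receptors, AGER, at 1.41 FPKM in PBS, differed by -0.13 with an unadjusted p of 0.478 in limma, and BSG, which binds S100A9, by 0.031, while TLR4 was below the minimum at 0.127 FPKM in PBS and 0.175 FPKM in gluconate.

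Among the other EF-hand proteins, PDCD6 and CALU were the 2 of 15 genes tested with an unadjusted limma p under 0.05, both higher in gluconate, where 4.62% of all genes tested had such a p and 3.13% with higher gluconate values. PDCD6, which works at endoplasmic reticulum exit sites, differed by 0.22 with an unadjusted p of 0.0137. CALU, a calcium-binding protein of the secretory pathway, differed by 0.19 with an unadjusted p of 0.0365. Without PBS replicate 4 these differences were 0.24 and 0.21. CHP1 differed by 0.10 with an unadjusted p of 0.165 in limma, at 24.2 ± 0.384 FPKM in PBS and 26.1 ± 1.53 FPKM in gluconate (SD, n = 4 each). The median over the 15 genes was 0.036, against 0.069 over all genes, and 0.032 against -0.0029 without PBS replicate 4. Of the other S100 genes, 7 had values and 2 were tested. S100A1 was at 1.88 ± 0.728 FPKM in PBS and 2.46 ± 1.44 FPKM in gluconate, and S100A14 at 0.586 ± 0.492 and 0.509 ± 0.251 FPKM (SD, n = 4 each). PBS replicate 4 had 0 fragments of S100A14, where 3 fragments are 0.641 FPKM, so its log2 difference of 0.22 over all libraries depends on the pseudocount and runs against the means, and without that library it was -0.54. The log2 difference of S100A1 was 0.20, or 0.076 without PBS replicate 4. S100A1 overlaps S100A13 on the opposite strand over 3435 bases, and the sources used here do not give whether counting used strand.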

How the data were processed

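RNA-seq (polyA selection) was analysed in 4 PBS and 4 gluconate tumor libraries. For 24196 gene symbols, the authors deposited FPKM values. The submitters' processing notes name GRCh38, and the aligner, counter and annotation are not given in the sources used here. Columns lettered C and T were taken as PBS and gluconate because the study plots its log2 ratio as T over C, and replicates from their digits. Dividing each FPKM value by the smallest step of its gene and library returned whole fragments for 100% of values (tolerance 0.01), and these gave the depth.

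Groups were compared on log2(FPKM + 0.1), a scale that understates changes of low genes, with limma 3.58.1 in R 4.3.3 (trend, two-sided), over the 12486 genes whose mean FPKM reached 0.5, with Benjamini-Hochberg adjustment over all of them. Exact permutation tests used Python 3.11.15 with scipy 1.17.1. The procedure was tested on simulated data. Poisson intervals and floors cover counting error only. The members, lists and motifs were chosen with earlier results of these data known. Each member was named, and from the lists of related genes a set of known partners and every gene with an unadjusted p under 0.05. The 3 genes most like the member of lowest p were also named. Alternatives were other pseudocounts, filters, scalings and tests, voom on the recovered fragments, each library left out in turn, and the replicate number as a block. The combinations of voom or quantile normalization with leaving out PBS replicate 4 were chosen after seeing the data. The labels do not state a pairing by replicate number, and the main fit used none.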

Additional observations from a re-analysis of the deposited data

Results flagged for a closer look

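Of 17 groups of 4 libraries examined over the members, 2 had 1 library far from the other 3, where chance gives about 1 in 20 groups, or 0.85 here. One of them, S100A8, had to pass, since a single fragment beside libraries at 0 fixes the gap at the whole range. S100A11 in gluconate replicate 4 was at 453 FPKM, while the other gluconate libraries were at 389 to 394 FPKM. S100A8 in gluconate replicate 3 was at 0.0350 FPKM, which is 1 fragment, while the other gluconate libraries were at 0. The PBS group of S100A11 had no such library, and that of S100A8, at 0 throughout, was not examined.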

How the results depend on the processing

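S100A6 kept an unadjusted p under 0.05 in 19 of 19 alternatives (log2 difference 0.23 to 0.45, unadjusted p of 0.00146 to 0.0290). S100A4 kept it in 16 of 19 (0.39 to 0.87), the exceptions being the test without moderated variance (unadjusted p of 0.0757) and the limma fits without gluconate replicate 1 (0.0542) and without gluconate replicate 4 (0.0641). S100A2 kept it in 9 of 19 (0.24 to 0.55), and S100A3 reached it in 2 of 19. S100A10 (0.011 to 0.18) and S100A11 (0.054 to 0.15) were above 0 in all 19 and reached it in 0. With voom or quantile normalization without PBS replicate 4, 2 members had such a p, as did 760 and 787 of all 12530 genes tested. The number of members with such a p was 3, was 2 without the filter on low values, 2 with quantile normalization and 1 with the test without moderated variance, and ranged from 1 to 4 as single libraries were left out, with 1 without gluconate replicate 1, 1 without gluconate replicate 4, 4 without gluconate replicate 2, and 2 without PBS replicate 3 or PBS replicate 4. No member had an adjusted p under 0.05 in any alternative. Over all genes the number with an unadjusted p under 0.05 in limma was 577 of 12486 tested, became 1028 of 24196 tested without the filter on low values, 593 of 12486 with voom, 783 with quantile normalization and 489 with the test without moderated variance, and ranged from 267 (without gluconate replicate 4) to 1216 (without PBS replicate 1) as single libraries were left out, with 288 without gluconate replicate 3 and 874 without PBS replicate 2. S100A13 turned to -0.0075 with median-of-ratios scaling, to -0.0076 with voom, and to -0.046 and -0.055 with voom and with quantile normalization without PBS replicate 4, and ranged from -0.048 (without PBS replicate 4) to 0.19 (without PBS replicate 3) as single libraries were left out. S100A16 turned to -0.061 with median-of-ratios scaling, -0.025 with quantile normalization, -0.012 with voom, and -0.032 and -0.059 with voom and with quantile normalization without PBS replicate 4, and ranged from -0.044 (without PBS replicate 2) to 0.077 (without PBS replicate 3) as single libraries were left out. It was also below 0 without PBS replicate 4 and without gluconate replicates 1, 3 or 4. The cause of these changes was not tested. With the replicate number as a block, S100A4 had an unadjusted p of 0.0369 and S100A6 of 0.0148 in limma, 3 members had an unadjusted p under 0.05 and 470 genes had one over all. The deviations of libraries with the same number from their group means had r = -0.18, 0.084, 0.17 and -0.057 for numbers 1 to 4. Numbers 2 and 3 correlated best with their own number and numbers 1 and 4 did not. With 4 libraries per group this cannot settle whether the libraries were paired. PBS replicate 4 limits the low genes most, since 3 fragments were 1.05 FPKM of S100A8 there.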

Other observations

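Of the genes most like S100A6 over the 7 libraries other than PBS replicate 4, UNC50 also followed it over all 8 libraries (r = 0.98), while APTX (r = 0.41) and CHRDL1 (r = 0.62) did so less. These are descriptions over libraries that share a depth and a scaling. UNC50, a protein of the Golgi and inner nuclear membrane, was at 30.9 to 39.7 FPKM in PBS and at 40.1 to 44.9 FPKM in gluconate, a log2 difference of 0.28 with an unadjusted limma p of 0.0129. CHRDL1, a secreted antagonist of bone morphogenetic proteins, was at 10.1 to 16.1 FPKM in PBS and at 15.3 to 21.7 FPKM in gluconate, a log2 difference of 0.44 with an unadjusted limma p of 0.0278. APTX, a DNA repair enzyme, differed by 0.13 with an unadjusted limma p of 0.196. These genes were picked for their likeness to S100A6, and their differences between groups are not independent of it.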
